A study of Mus musculus with 27 samples.

Results

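The genes of the multiciliated cell differentiation program were followed in whole mouse lung after house dust mite allergen, after combustion products and after both. The program was taken as 10 genes, chosen by name: Mcidas, Deup1, Ccno, Foxj1, Gmnc, Myb, Foxn4, Plk4, Cdc20b and Trp73. The choice was made with earlier results of these data known. Shares over all genes set beside the members are thus description and not a test of the set. All 10 of 10 were found by their symbol among the 56941 genes of the deposited tables, and all 10 passed the filter on low counts. They were set beside 56 genes of the mature motile cilium, Tppp3 among them.

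Multiciliated cells of the airway carry many motile cilia that move mucus. To build them, a precursor leaves the cell cycle, and a cascade led by the geminin relatives Gmnc and Mcidas, acting with E2F factors, turns on the factors of ciliogenesis and the machinery that makes many centrioles at once. Those centrioles form in part on deuterosomes, structures particular to these cells that need Deup1, and then dock at the surface as basal bodies. Several genes of the cascade are on for a limited time during differentiation. Foxj1, genes of the axoneme such as the dyneins, and the marker gene Tppp3 stay on in the finished cell.

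Lungs of 27 male C57Bl/6 mice aged 7 to 8 weeks were profiled by polyA-selected bulk RNA sequencing. Every mouse received 5 oropharyngeal instillations of 50 µl, either with 10 µg house dust mite extract (HDM) or of phosphate-buffered saline (PBS), and then 1 further instillation of 100 µl, either saline with 2 mg per ml of combustion products (CP), made by burning a mixture of plywood, paper and plastic, or saline without them (SAL). HDM_CP had 7 mice, HDM_SAL 6, PBS_CP 7 and PBS_SAL 7, and lungs were taken 24 h after the second agent. Libraries are called by group and by the number in their label. The whole lung was lysed, so that multiciliated cells supplied a small share of the RNA, and fewer cells of a type and less RNA per cell cannot be told apart.

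The estimated counts summed to between 56.3 and 84.5 M (M, mega) per library, and levels are given as counts per M (CPM) or, between genes, as transcripts per M (TPM), which allow for length. Sftpc of alveolar type 2 cells and Scgb1a1 of club cells averaged 29400 and 81200 TPM, so the defining genes of lung were present. The library labelled PBS_CP 57 stood apart: its 10 goblet cell markers summed to 715 CPM, against 22.6 to 42.4 CPM in the other 6 PBS_CP libraries. HDM_SAL 54 had the highest level of its group for every member except Plk4. It also had the highest share of counts from mitochondrial genes, 3.86%, followed by HDM_SAL 50 (3.26%) and HDM_SAL 99 (3.09%), the same 3 libraries that were highest in mature cilium genes in that group. The other HDM_SAL libraries had 2.32% to 2.52% and the PBS_SAL libraries 2.08% to 2.48%, and the part of this share in the results was not tested. For some of the results that rest on these libraries, values without them are given too. Each library was taken as 1 mouse, and p-values measure the spread between the libraries of a group.

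Of the 10 members, 3 lie together on chromosome 13 of GRCm39, all on the plus strand. Ccno, which encodes cyclin O (ENSMUSG00000042417.6, chr13:113124336-113127311), is followed after 3067 bases by Mcidas, which encodes multicilin (ENSMUSG00000074651.4, chr13:113130379-113136928), and after a further 34716 bases by Cdc20b (ENSMUSG00000078926.9, chr13:113171645-113227729). Cdc20b hosts the microRNA genes Mir449a, Mir449b and Mir449c and overlaps Gpx8, a glutathione peroxidase gene on the other strand. The remaining members are spread over the genome: Gmnc (chr16:26732303-26810402), Trp73 (chr4:154140706-154224665), Myb (chr10:21000834-21036883), Foxn4 (chr5:114392225-114411868), Foxj1 (chr11:116221530-116226225) and Deup1 (chr9:15471160-15539229) on the minus strand, and Plk4 (chr3:40754454-40771318) on the plus strand.

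The promoters of Mcidas, Ccno and Deup1 are shown because these 3 genes were higher after allergen and varied together between mice, as described further on. Cdc20b was also higher after allergen and varied with these 3 genes (r of 0.696 to 0.794). Its promoter is not shown and held no match to the motifs searched. The sequences shown are the 250 bases before the RefSeq transcription start in GRCm38.p6, which is not the build of the count tables, written 5′ to 3′ on the gene's strand. Capitals mark GTTGCC or its reverse complement, a core of the sites of RFX factors, which act in ciliogenesis. Deup1 has 2 promoter windows, and the window shown is the 1 that holds this match. The other Deup1 window holds no GTTGCC, so only promoters with a match are shown.
Mcidas, chr13:112993618-112993867, plus strand: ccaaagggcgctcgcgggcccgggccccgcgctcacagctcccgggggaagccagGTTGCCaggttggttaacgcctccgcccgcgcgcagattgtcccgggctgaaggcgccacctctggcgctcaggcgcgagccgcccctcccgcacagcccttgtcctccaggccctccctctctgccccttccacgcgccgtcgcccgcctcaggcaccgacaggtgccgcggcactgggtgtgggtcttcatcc
Ccno, chr13:112987552-112987801, plus strand: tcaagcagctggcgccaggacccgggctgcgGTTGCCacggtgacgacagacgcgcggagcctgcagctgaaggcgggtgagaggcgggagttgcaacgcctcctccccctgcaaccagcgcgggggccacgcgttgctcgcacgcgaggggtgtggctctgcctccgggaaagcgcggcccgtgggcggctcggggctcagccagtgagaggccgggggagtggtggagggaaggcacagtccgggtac
Deup1, chr9:15627847-15628096, minus strand: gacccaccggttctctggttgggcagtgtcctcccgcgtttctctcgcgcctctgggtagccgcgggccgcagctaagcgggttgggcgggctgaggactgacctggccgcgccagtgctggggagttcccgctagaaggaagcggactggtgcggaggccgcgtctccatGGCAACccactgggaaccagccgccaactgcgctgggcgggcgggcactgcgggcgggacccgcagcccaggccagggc

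RefSeq promoters were found for 9 of the 10 members, in 12 windows of 300 bases that run to 50 bases past the start, and both strands were searched for 4 motifs. Gmnc, Trp73 and Deup1 had 2 windows each, and the shares over all promoters are shares of windows and not of genes. GTTGCC was present in 1 window each of Mcidas, Ccno, Deup1 and Trp73, and in 12.5% of all 32851 promoters of the table. It begins at base -195 in Mcidas, at -219 in Ccno and, on the opposite strand, at -79 in Deup1. A MYB-like AACNGNC was present in a window of Trp73, Foxn4, Deup1 and Plk4 and in 32.8% of all promoters. A forkhead TGTTTAC was present in Myb and in 3.65% of all promoters, and an E2F-like TTTNNCGC was in none of the member windows and in 5.17% of all promoters. The Cdc20b window held none of the 4 motifs. These are matches of letters and not measured binding sites.

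Per length, the members differed widely in level. Over the 27 libraries Foxj1 averaged 65.4 TPM, Myb 13.9 TPM, Trp73 6.56 TPM, Plk4 5.79 TPM, Ccno 4.7 TPM, Deup1 4.58 TPM, Cdc20b 2.93 TPM, Gmnc 2.25 TPM, Mcidas 1.75 TPM and Foxn4 1.16 TPM, against 510 TPM for Tppp3. Foxj1, the regulator that mature multiciliated cells keep expressing, was thus the most abundant member, and the geminin relatives were among the lowest.

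After allergen without combustion products, 4 of the 10 members rose. Mcidas, Cdc20b, Deup1 and Ccno were higher in HDM_SAL than in PBS_SAL lungs, by 1.36 to 2.34 on the log2 scale, and none of the 10 members was lower. These 4 of 10 compare with 5.37% of the 24581 genes tested that were called in either direction at an adjusted p under 0.05 (3.12% higher), and the median log2 fold change was 0.95 over the members and 0.01 over all genes. The remaining members, Foxn4, Plk4, Foxj1, Myb, Trp73 and Gmnc, differed by 0.28 to 1.47 and did not pass the test.

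Mcidas, the coactivator that drives centriole amplification, had a lowest, median and highest level of 2.19, 3.17 and 7.66 CPM in HDM_SAL lungs, against 0.352, 0.795 and 1.22 CPM in PBS_SAL lungs. All 6 HDM_SAL libraries lay above all 7 PBS_SAL libraries. The log2 fold change was 2.34 ± 0.46 (SE; adjusted p = 0.00328, edgeR quasi-likelihood test with Benjamini-Hochberg adjustment over all genes, as for each adjusted p below). Mcidas passed with each of the 13 libraries of these groups left out in turn, and the lowest value was 2.038.

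Cdc20b, whose product is found at deuterosomes, had a lowest, median and highest level of 1.84, 2.12 and 6.82 CPM in HDM_SAL lungs, against 0.459, 0.672 and 1.33 CPM in PBS_SAL lungs. These groups did not overlap either, and HDM_SAL 54 stood well above the other 5 libraries of its group, which reached 2.95 CPM. The log2 fold change was 2.02 ± 0.45 (adjusted p = 0.00835), and 1.59 without HDM_SAL 54, still past the threshold. No source used here says that strand was used in counting, so reads of Gpx8 and Cdc20b cannot be told apart where they overlap. Gpx8 itself was near 31.4 CPM on average and differed by 0.13 ± 0.09 (adjusted p = 0.431).

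Deup1, the structural protein of the deuterosome, had 4.70, 7.62 and 17.8 CPM as its lowest, median and highest level in HDM_SAL lungs, against 2.68, 3.48 and 4.83 CPM in PBS_SAL lungs. Of the HDM_SAL libraries, 5 of 6 lay above every PBS_SAL library, so the groups overlapped by a single library. The log2 fold change was 1.36 ± 0.30 (adjusted p = 0.00817). Deup1 passed with each library of these groups left out in turn, and the lowest value was 1.045 (highest adjusted p = 0.038).

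Ccno, a cyclin needed for the formation of normal numbers of centrioles in these cells, had 3.92, 5.35 and 14.2 CPM in HDM_SAL lungs, against 1.52, 2.68 and 3.94 CPM in PBS_SAL lungs. The lowest HDM_SAL library fell just below the highest PBS_SAL library and the other 5 lay above. The log2 fold change was 1.36 ± 0.32 (adjusted p = 0.0122). Without HDM_SAL 54 it was 1.02 and no longer passed the threshold, which left 3 of 10 members called, where 2.8% of all genes were.

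Foxn4, a forkhead factor that acts beside Foxj1 in multiciliated cells of Xenopus, had 1.92, 2.16 and 4.73 CPM in HDM_SAL lungs, against 0.328, 1.06 and 1.85 CPM in PBS_SAL lungs. The groups did not overlap, but the log2 fold change of 1.47 ± 0.45 missed the threshold (adjusted p = 0.0531). It passed under 8 of 15 alternatives to this fit, DESeq2 and limma voom among them. With 1 of the 13 libraries of these groups left out in turn, it passed in 4 fits and not without HDM_SAL 54. With Mcidas and Cdc20b, 3 of the 10 members had all HDM_SAL libraries above all PBS_SAL libraries, as did 1.18% of all genes tested.

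Plk4, the kinase that starts centriole duplication in cycling cells and in multiciliated precursors alike, had 8.34, 10.5 and 11.0 CPM in HDM_SAL lungs, against 6.43, 7.61 and 9.85 CPM in PBS_SAL lungs. The groups overlapped, with 4 of 6 HDM_SAL libraries above every PBS_SAL library, and the log2 fold change was 0.36 ± 0.12 (adjusted p = 0.0721).

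Foxj1, the main regulator of motile ciliogenesis, had 71.8, 89.5 and 165 CPM in HDM_SAL lungs, against 53.9, 65.1 and 93.1 CPM in PBS_SAL lungs, a log2 fold change of 0.51 ± 0.20 (adjusted p = 0.127). The groups overlapped, with 3 of the 6 HDM_SAL libraries above all PBS_SAL libraries. Myb, a factor that acts early in centriole amplification and also in blood progenitors, differed by 0.41 ± 0.16 (adjusted p = 0.132), and Gmnc, which acts upstream of Mcidas, by 0.54 ± 0.24 (adjusted p = 0.205). Trp73, an activator of Foxj1 and of other genes of multiciliogenesis, differed by 0.28 ± 0.18 (adjusted p = 0.406). With 1 library left out in turn, none of these genes passed. The lowest values were then 0.309 for Foxj1, 0.203 for Myb, 0.349 for Gmnc and 0.101 for Trp73.

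**Figure D1:**
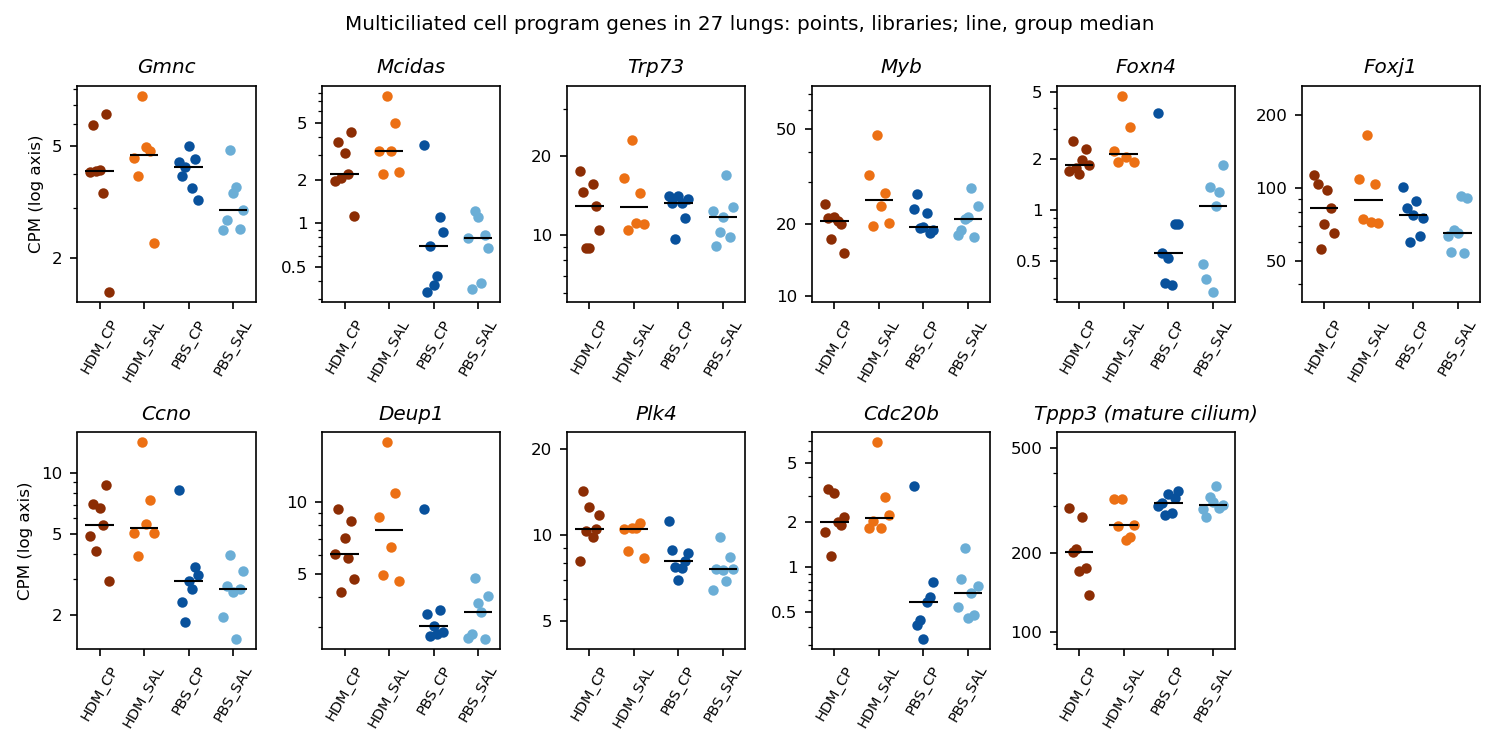
CPM of the 10 program genes and of Tppp3 on log axes in the 27 libraries (points) with the group median (line), in HDM_CP, HDM_SAL, PBS_CP and PBS_SAL lungs. Mcidas, Foxn4 and Cdc20b do not overlap between HDM_SAL and PBS_SAL, and PBS_CP 57 is the single high point of PBS_CP in these panels.

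After allergen with combustion products, the centriole kinase Plk4 was the 1 member of 10 that passed the test in HDM_CP against PBS_CP, where 7.88% of all genes were called (5.58% higher). Its lowest, median and highest levels were 8.11, 10.5 and 14.3 CPM in HDM_CP lungs, against 7.00, 8.15 and 11.2 CPM in PBS_CP lungs. The groups overlapped, and the log2 fold change was 0.38 ± 0.11 (adjusted p = 0.0352). This call was lost when any of 8 single libraries was left out (HDM_CP 49, 67 or 98, or PBS_CP 58, 59, 75, 76 or 101).

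The 4 members called in HDM_SAL lungs had fold changes above 0 here too, but none of them passed. Mcidas differed by 1.32 ± 0.44 (adjusted p = 0.0622), Cdc20b by 1.22 ± 0.43 (adjusted p = 0.0833), Deup1 by 0.72 ± 0.29 (adjusted p = 0.138) and Ccno by 0.70 ± 0.31 (adjusted p = 0.185). Foxn4 differed by 0.93 ± 0.43 (adjusted p = 0.215). The median over the members was 0.54, against 0.00 over all genes.

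PBS_CP 57 bore on these values. Mcidas had 1.13, 2.20 and 4.29 CPM as its lowest, median and highest level in HDM_CP lungs, against 0.333, 0.693 and 3.52 CPM in PBS_CP lungs. The highest PBS_CP value was that of library 57, and the other 6 PBS_CP libraries reached 1.12 CPM. For Deup1 the HDM_CP libraries ran from 4.20 to 9.42 CPM, against 9.37 CPM in PBS_CP 57 and 2.74 to 3.53 CPM in the other 6 PBS_CP libraries. For Cdc20b they ran from 1.19 to 3.33 CPM, against 3.46 CPM in PBS_CP 57 and 0.332 to 0.797 CPM in the others.

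Without PBS_CP 57, 6 members were higher in HDM_CP lungs, where 6.96% of all genes were called. Mcidas then differed by 2.04 ± 0.37 (adjusted p = 0.000985), Cdc20b by 2.05 ± 0.33 (adjusted p = 0.000323), Foxn4 by 1.77 ± 0.34 (adjusted p = 0.00161), Deup1 by 1.09 ± 0.25 (adjusted p = 0.00651), Ccno by 1.06 ± 0.27 (adjusted p = 0.015) and Plk4 by 0.46 ± 0.11 (adjusted p = 0.0092). PBS_CP 57 was singled out after its values were seen, and it was the highest PBS_CP library for each of these 6 members. Leaving it out thus raises their fold changes by design, and these values are description and not further support. Foxj1 (0.18 ± 0.20, adjusted p = 0.694), Gmnc, Trp73 and Myb did not pass with or without that library. PBS_CP 57 also had the goblet cell marker Clca1 at 516 CPM, against 4.11 to 11.1 CPM in the other PBS_CP libraries. Whether its label is right was not tested.

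Averaged over mice given combustion products and mice given saline, 6 of the 10 members rose with allergen and none fell, where 16.1% of all genes were called (9.08% higher). Mcidas was higher by 1.83 ± 0.32 (adjusted p = 0.000215), Cdc20b by 1.62 ± 0.31 (adjusted p = 0.00057), Foxn4 by 1.20 ± 0.31 (adjusted p = 0.0083), Deup1 by 1.04 ± 0.21 (adjusted p = 0.000913), Ccno by 1.03 ± 0.22 (adjusted p = 0.00177) and Plk4 by 0.37 ± 0.08 (adjusted p = 0.00205). All 4 centriole genes were thus called, and of the 6 regulators Mcidas and Foxn4 were. Foxj1 differed by 0.31 ± 0.14 (adjusted p = 0.126), Gmnc by 0.29 ± 0.17 (adjusted p = 0.271), Myb by 0.16 ± 0.11 (adjusted p = 0.355) and Trp73 by 0.14 ± 0.12 (adjusted p = 0.522). All 6 calls held when each of the 27 libraries was left out in turn. The library numbers fall into 3 runs (45 to 64, 66 to 81 and 96 to 105), and within each run Mcidas, Cdc20b, Foxn4, Deup1, Ccno and Plk4 were higher in HDM than in PBS lungs in all 6 comparisons, by 1.14 to 2.77 on the log2 scale for Mcidas. These comparisons had only 1 to 3 libraries a side, with a single HDM_SAL library in the run 66 to 81.

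No member passed the test for combustion products without allergen. In PBS_CP against PBS_SAL 0 of 10 members were called by edgeR, DESeq2 or limma voom, where edgeR called 0.00814% of all genes, and 0 had an unadjusted p under 0.05. Mcidas had the difference furthest from 0, 0.45 ± 0.45 with a 95% interval of -0.47 to 1.36, and it was -0.27 ± 0.37 without PBS_CP 57. Without that library Foxn4 came to -0.73 ± 0.34, against 0.10 with it, and Cdc20b to -0.445 ± 0.327, against 0.39 with it (adjusted p = 1 for each without it). The intervals were narrower for Plk4 (-0.11 to 0.36), Myb (-0.32 to 0.30), Trp73 (-0.25 to 0.46) and Foxj1 (-0.22 to 0.55), which differed by 0.13, -0.01, 0.11 and 0.17. Differences inside these intervals were not excluded.

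In lungs given allergen, no member passed for combustion products either (0 of 10 by edgeR, DESeq2 or limma voom, 1 at an unadjusted p under 0.05, with 0.00407% of all genes called by edgeR). The fold change of HDM_CP over HDM_SAL was below 0 for every member except Plk4. This direction depended on single libraries for some members. With 1 library left out, the highest value was above 0 for Ccno (0.077), Gmnc (0.045), Cdc20b (0.022) and Trp73 (0.002). It stayed below 0 for Mcidas, Deup1, Foxn4, Foxj1 and Myb. Myb came closest to the threshold, with 15.1, 20.6 and 24.4 CPM as its lowest, median and highest level in HDM_CP lungs and 19.7, 25.4 and 47.4 CPM in HDM_SAL lungs. These groups overlapped, and the log2 fold change was -0.50 ± 0.16 (unadjusted p = 0.00364, adjusted p = 0.232). Mcidas differed by -0.57 ± 0.44, Deup1 by -0.46 ± 0.30 and Foxj1 by -0.24 ± 0.20, and Plk4 by 0.15 ± 0.12. Without HDM_SAL 54 Myb came to -0.29 ± 0.13 (adjusted p = 0.654) and Mcidas to -0.27 ± 0.45 (adjusted p = 0.976). None of 56 mature cilium genes had a value above 0 in this comparison, with a median of -0.30, against -0.34 for the members, and 0 of them were called by edgeR (8 at an unadjusted p under 0.05). Of the 10 club cell markers 1 had a value above 0 there, with a median of -0.40, and 0 were called by edgeR (5 at an unadjusted p under 0.05). The part of club cells in these values was not tested, and the list medians were not taken without HDM_SAL 54. The test of whether the allergen effect itself differed between CP and SAL mice gave no call among the members or among all genes. Mcidas came to -1.02 ± 0.63 (95% interval -2.30 to 0.26, adjusted p = 0.825), and Myb to -0.49 ± 0.22 (unadjusted p = 0.0333, adjusted p = 0.774). These values depended on the fit. Over 14 alternatives, among them a fit without PBS_CP 57 and HDM_SAL 54, Mcidas ran from -1.039 to -0.001 and Myb from -0.507 to -0.125. Cdc20b, at -0.81 in the main fit, ran from -0.829 to 0.459, and Foxn4, at -0.539, from -0.569 to 0.531. A weaker allergen effect with combustion products was thus not shown for the members.

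**Figure D2:**
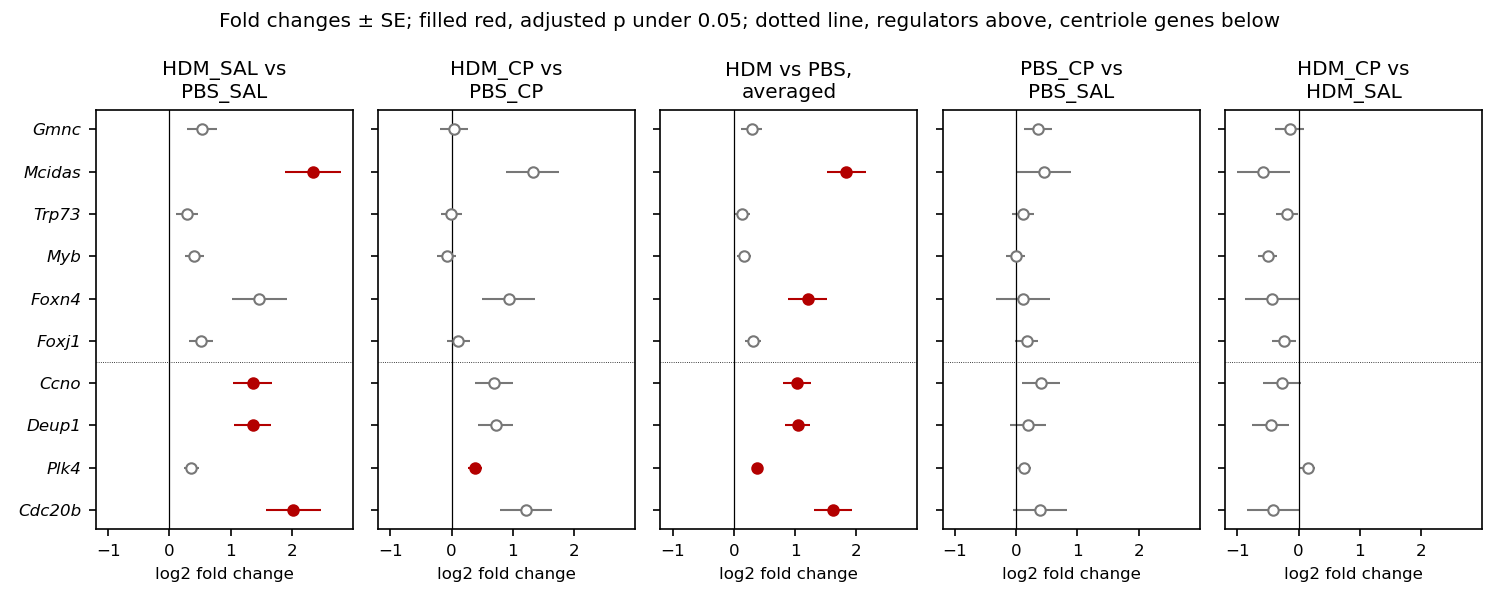
Log2 fold changes (points) with their standard errors (bars) of the 6 regulators and 4 centriole genes in 5 comparisons; filled red points passed an adjusted p under 0.05. The members called after allergen lie between 0.37 and 2.34, and no member was called for combustion products.

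Of 56 mature cilium genes, all of which were tested, 1 was higher and none lower in HDM_SAL than in PBS_SAL lungs, the dynein heavy chain Dnah9 (0.64 ± 0.19, adjusted p = 0.0479). Over all genes 5.37% were called in this comparison. At an unadjusted p under 0.05 there were 25 of 56, against 4936 of all 24581 genes. Values for 55 of the 56 were above 0, with a median of 0.38, between that of all genes (0.01) and that of the members (0.95). HDM_SAL 54 had the highest summed level of these 56 genes in its group, 2706 CPM, against a group median of 1673 CPM. The list median was not taken without that library, and 0 of the 56 were called in the fit without it. In HDM_CP against PBS_CP the median was -0.02, and the 1 gene called was lower, Tppp3 (-0.57 ± 0.12, adjusted p = 0.00329). Averaged over both, Dnah9 was higher (0.43 ± 0.13, adjusted p = 0.0272) and Tppp3 lower (-0.39 ± 0.09, adjusted p = 0.00233), with 15 of 56 at an unadjusted p under 0.05. Without HDM_SAL 54 only 1 mature cilium gene was called on average. Tppp3 passed there in each of the 27 fits with 1 library left out.

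Tppp3, a tubulin-binding protein used as a marker of multiciliated cells, had a lowest, median and highest level of 138, 201 and 297 CPM in HDM_CP lungs, against 279, 310 and 344 CPM in PBS_CP lungs. HDM_CP and PBS_CP overlapped only through the highest HDM_CP library. In HDM_SAL lungs it had 223, 254 and 321 CPM, against 274, 304 and 358 CPM in PBS_SAL lungs, which overlapped, and it differed by -0.21 ± 0.13 (adjusted p = 0.372). Its direction was thus opposite to that of Mcidas and Deup1 in both comparisons, and among the mature cilium genes no other gene was below 0 in HDM_SAL against PBS_SAL.

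**Figure D3:**
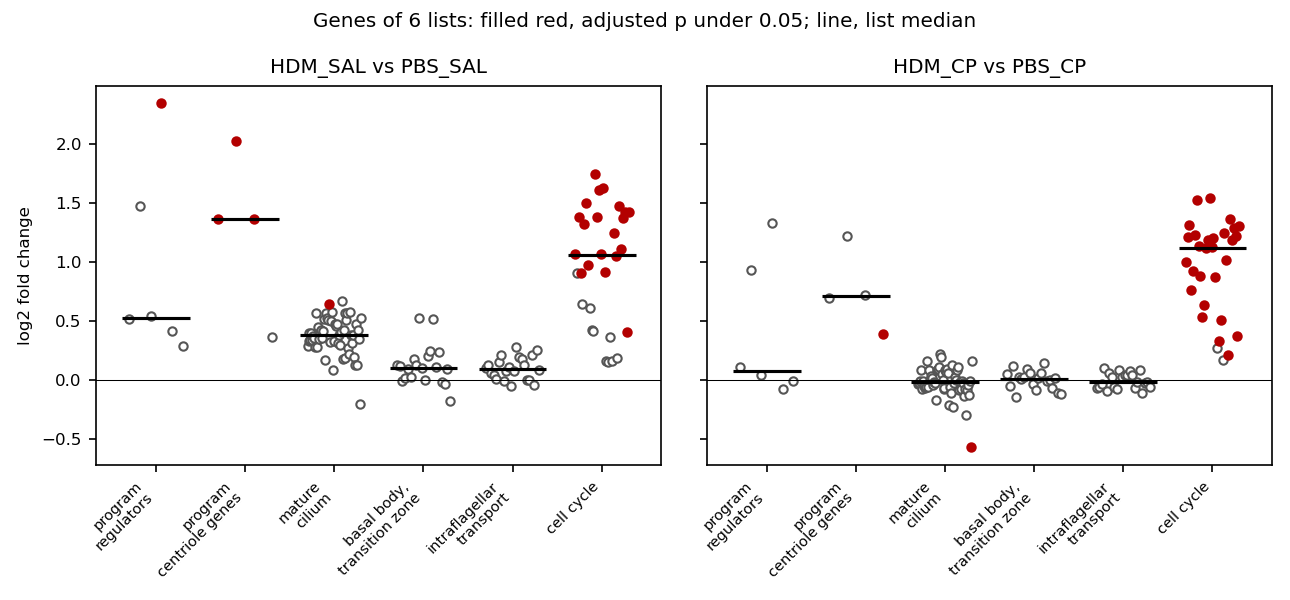
Log2 fold change of each gene (points) of 6 lists in HDM_SAL against PBS_SAL and in HDM_CP against PBS_CP, with the list median (line); filled red points passed an adjusted p under 0.05. The mature cilium genes have a median of 0.38 in the first comparison and -0.02 in the second, with Tppp3 the lowest point in both, and most cell cycle genes passed in both.

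No gene of the basal body or of transport along the cilium passed. None of 20 basal body and transition zone genes and none of 22 intraflagellar transport genes passed in HDM_SAL against PBS_SAL, in HDM_CP against PBS_CP or on average (at an unadjusted p under 0.05, 5, 0 and 3 of the basal body genes and 4, 0 and 1 of the transport genes). The medians of both lists lay between -0.02 and 0.10. Over all genes 5.37%, 7.88% and 16.1% were called in these comparisons, and 4936, 5066 and 7015 of 24581 had an unadjusted p under 0.05. For lists of 20 and 22 genes, 0 calls in HDM_SAL against PBS_SAL are near the share over all genes. Of 25 centriole assembly genes, which serve cycling cells too, 3 were higher in HDM_SAL lungs: Stil, which recruits centriole components (1.21 ± 0.26, adjusted p = 0.00562), the mitotic kinase Plk1 (1.19 ± 0.25, adjusted p = 0.00562) and Ccdc78, which in Xenopus is linked to deuterosomes (0.72 ± 0.20, adjusted p = 0.0348). Stil (1.18 ± 0.25, adjusted p = 0.00312) and Plk1 (1.03 ± 0.24, adjusted p = 0.00793) were higher in HDM_CP lungs as well. On average 7 were higher and 1 lower, and the 4 of smallest p were Stil (1.19 ± 0.18, adjusted p = 3.34e-05), Plk1 (1.11 ± 0.18, adjusted p = 6.98e-05), Cep120, which was lower (-0.16 ± 0.05, adjusted p = 0.0165), and Ccdc78 (0.48 ± 0.14, adjusted p = 0.0189).

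Among 19 other genes tied to the cascade, 3 were higher and 1 lower in HDM_SAL lungs, where 5.37% of all genes were called. Ccna1, the cyclin A of meiotic cells that is also on in multiciliated precursors, had a lowest, median and highest level of 2.16, 2.84 and 8.91 CPM in HDM_SAL lungs, against 0.373, 0.592 and 2.52 CPM in PBS_SAL lungs, which overlapped. It was higher by 2.14 ± 0.58 (adjusted p = 0.0284). Cdc20, the mitotic paralog of Cdc20b, was higher by 1.34 ± 0.27 (adjusted p = 0.00329), and Fbxo43, an inhibitor of the anaphase-promoting complex, was higher from a level close to 0 (median 0.577 CPM in HDM_SAL lungs, against 0.0525 CPM in PBS_SAL lungs; adjusted p = 0.0141). The receptor Notch1, whose signal holds precursors back from the multiciliated fate, was lower by a small amount (-0.31 ± 0.09, adjusted p = 0.0337). In HDM_CP against PBS_CP only Cdc20 of the 19 was called (1.36 ± 0.26, adjusted p = 0.00136). On average 6 of the 19 were higher, led by Cdc20, Fbxo43 and Ccna1, and 2 were lower, Notch1 (-0.24 ± 0.06, adjusted p = 0.00632) and the Notch target Hey1 (-0.37 ± 0.10, adjusted p = 0.0104). Of 5 endothelial markers, 1 was lower on average as well, Erg (-0.27 ± 0.06, adjusted p = 0.00101). Which cells of the whole lung the Notch1 and Hey1 values came from was not tested. Gmnn, the geminin that binds and restrains Mcidas and Gmnc, was higher by 0.24 ± 0.08 on average (adjusted p = 0.0386).

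Relative to the mature cilium genes of the same library, Mcidas stayed higher in HDM than in PBS lungs. A mature cilium score, the mean log2 CPM of the 56 genes, averaged 4.18 in HDM_CP, 4.45 in HDM_SAL, 4.22 in PBS_CP and 4.11 in PBS_SAL lungs. HDM_SAL 54 had the highest score, 5.12, and the other HDM_SAL libraries had 3.95 to 4.72. Mcidas less this score averaged -2.88 ± 0.69 in HDM_CP and -2.62 ± 0.37 in HDM_SAL lungs, against -4.58 ± 1.12 in PBS_CP and -4.56 ± 0.75 in PBS_SAL lungs (SD, n = 7, 6, 7 and 7). Foxj1 less the score averaged 2.18 ± 0.11 in HDM_CP and 2.12 ± 0.12 in HDM_SAL lungs, against 2.05 ± 0.10 in PBS_CP and 1.99 ± 0.07 in PBS_SAL lungs. The Mcidas difference between HDM and PBS lungs was thus larger than its spread, and that of Foxj1 was close to its spread.

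With the score as a covariate, 7 of the 10 members were called on average over CP and SAL mice, where 14.8% of all genes were. Mcidas was higher by 1.66 ± 0.31 (adjusted p = 0.000564), Cdc20b by 1.44 (adjusted p = 0.000803), Foxn4 by 1.07 ± 0.28 (adjusted p = 0.00991), Ccno by 0.87 ± 0.21 (adjusted p = 0.00491) and Deup1 by 0.82 (adjusted p = 0.000698). Foxj1 passed with a small difference, 0.12 ± 0.04 (adjusted p = 0.0402), and Plk4 was the seventh (0.36). Trp73 came to -0.05 and Myb to 0.02, and neither passed. Tppp3 was lower by -0.47 ± 0.07 (adjusted p = 6.6e-05). In HDM_SAL against PBS_SAL by itself only Mcidas remained past the threshold (1.87 ± 0.48, adjusted p = 0.039), where 2.12% of all genes were called, and in HDM_CP against PBS_CP 4 members passed (Mcidas, Deup1, Cdc20b and Plk4), where 9.83% of all genes were called.

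**Figure D4:**
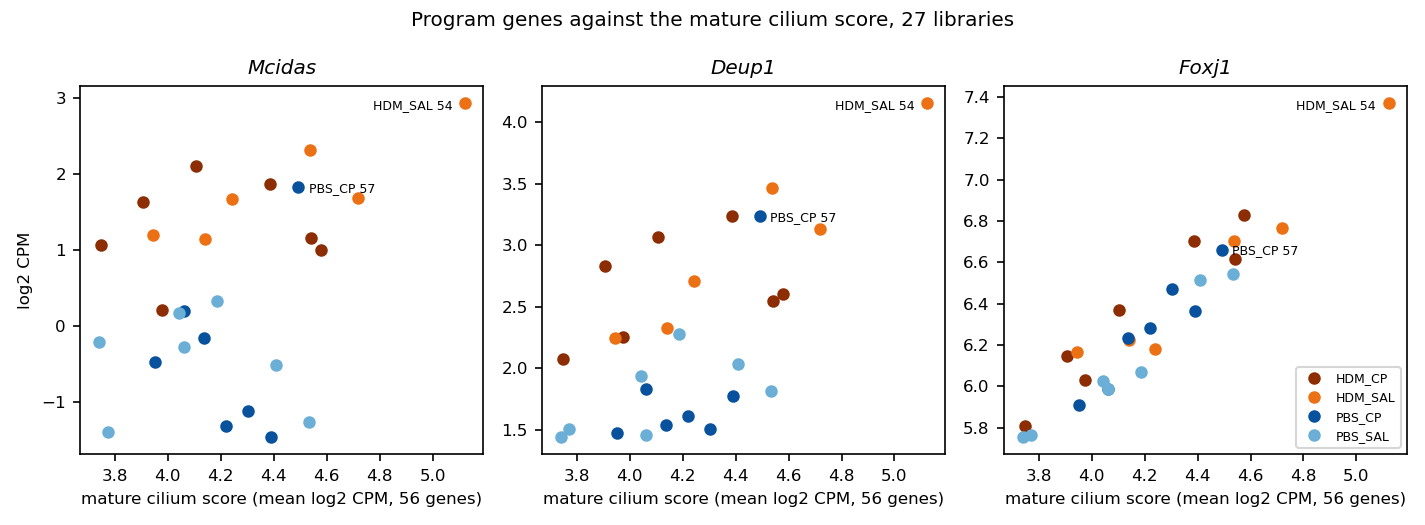
Log2 CPM of Mcidas, Deup1 and Foxj1 against the mature cilium score (mean log2 CPM of 56 genes) in each of 27 libraries, coloured by group, with PBS_CP 57 and HDM_SAL 54 labelled. Foxj1 follows the score in all groups, whereas HDM libraries have more Mcidas than PBS libraries at a like score, except PBS_CP 57.

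Between mice of one group the members differed in how closely they followed the mature cilium score. Within groups Foxj1, Trp73 and Myb followed the mature cilium score with a slope near 1: 1.10 ± 0.06 for Foxj1 (adjusted p = 6.09e-13), 1.00 ± 0.09 for Trp73 (adjusted p = 2.16e-09) and 0.81 ± 0.10 for Myb (adjusted p = 4.96e-07). Deup1 followed it too (1.25 ± 0.26, adjusted p = 0.00184). These 4 of 10 compare with 10.9% of all genes (5.81% with a positive slope). Mcidas (0.99 ± 0.51, adjusted p = 0.24), Foxn4 (1.25 ± 0.46), Cdc20b (1.22 ± 0.45), Ccno (0.86 ± 0.34), Gmnc (0.643 ± 0.265) and Plk4 (0.09 ± 0.14) did not pass in this fit. The slopes of Foxn4, Cdc20b, Mcidas and Ccno were near those that passed, with larger SE, and the slope of Plk4 was the lowest. The deviations from group means had r = 0.965 and rho = 0.957 for Foxj1 and the score (permutation within groups p = 1e-05 for each, the smallest that the 100000 draws can give, adjusted 5e-05 over 20 relations), and r = 0.951 without the 2 libraries furthest out on the score. By this permutation test Foxn4 passed as well, with r = 0.441 (adjusted 0.0218) and rho = 0.452 (adjusted 0.0369), and r = 0.369 without the 2 libraries. Cdc20b passed on r (0.405, adjusted 0.0465) and not on rho (0.339, adjusted 0.131), with r = 0.291 without them.

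Plk4 was the member closest to the cell cycle genes. A cell cycle score of 30 genes had a slope of 0.50 ± 0.08 for Plk4 (adjusted p = 0.000367), and Plk4 was the 1 member called in this fit, against 2.01% of all genes (1.69% with a positive slope). The deviations of Plk4 and the score had r = 0.818 and rho = 0.852 (permutation p = 1e-05 and 1e-05, adjusted 5e-05 over the same 20 relations), and r = 0.787 without the 2 libraries furthest out. By the permutation test Cdc20b, Mcidas, Deup1 and Foxn4 followed this score too, with r of 0.513, 0.442, 0.450 and 0.432 (adjusted 0.0171 to 0.0465), rho of 0.484 to 0.602 (adjusted 0.0057 to 0.0369) and r of 0.437 to 0.542 without the 2 libraries. Ccno passed on rho (0.487, adjusted 0.0369) and not on r (0.413, adjusted 0.0743). PBS_CP 57 and HDM_SAL 54 were not the 2 libraries furthest out on this score, so these values include both. Cell cycle genes themselves were higher with allergen, 20 of 30 in HDM_SAL, 28 of 30 in HDM_CP and 29 of 30 on average, led by Birc5, Ube2c, Kif20a and Cdk1 (1.35 to 1.43 on average), and the score averaged 3.81 in HDM_CP and 3.49 in HDM_SAL, against 2.89 in PBS_CP and 2.55 in PBS_SAL lungs. With it as a covariate Plk4 came to -0.10 ± 0.09 on average and Mcidas to 0.80 ± 0.47 (adjusted p = 0.895). In that fit 8 genes of all those tested (0.0325%) were called.

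Mcidas, Ccno and Deup1 varied together between mice. Mcidas and Ccno had r = 0.821 and rho = 0.770 (permutation p = 1e-05 and 2e-05, adjusted 0.000113 and 0.000225 over 45 pairs), and r = 0.701 without the 2 libraries furthest out. Ccno and Deup1 had r = 0.844 and rho = 0.784 (permutation p = 1e-05 and 2e-05, adjusted 0.000113 and 0.000225), and r = 0.696 without those. Cdc20b varied with these genes too, with r = 0.794 for Deup1, 0.768 for Ccno and 0.696 for Mcidas (adjusted permutation p = 0.0013, 0.00154 and 0.00478). Without the 2 libraries furthest out these r were 0.549, 0.533 and 0.402. Of the 45 pairs of members, 44 had a positive r and 28 passed an adjusted permutation p of 0.05. All genes of a library share its lung sample and its depth, so the pairs are not independent of each other.

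Of 14328 genes ranked, the 5 whose deviations were most like those of Mcidas over the 27 libraries were Ccno (r = 0.821), Deup1 (0.783), Ccna1 (0.726), Stil (0.715) and Plekha7 (0.714). For Deup1 they included Ccno (r = 0.844), Crocc2 (0.838), Pigr (0.821) and Muc5ac (0.819), the last of these the gel-forming mucin of goblet cells. PBS_CP 57 was high in both Deup1 and the goblet cell markers. The r of Deup1 with Crocc2, Pigr and Muc5ac include that library and were not taken without it. Neighbours of the chromosome 13 genes gave no like pattern: Gpx8, Gzma, Dhx29 and Mtrex were not called in HDM_SAL or HDM_CP lungs, and Mtrex alone passed on average, lower by a small amount (-0.11 ± 0.03, adjusted p = 0.0307).

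**Figure D5:**
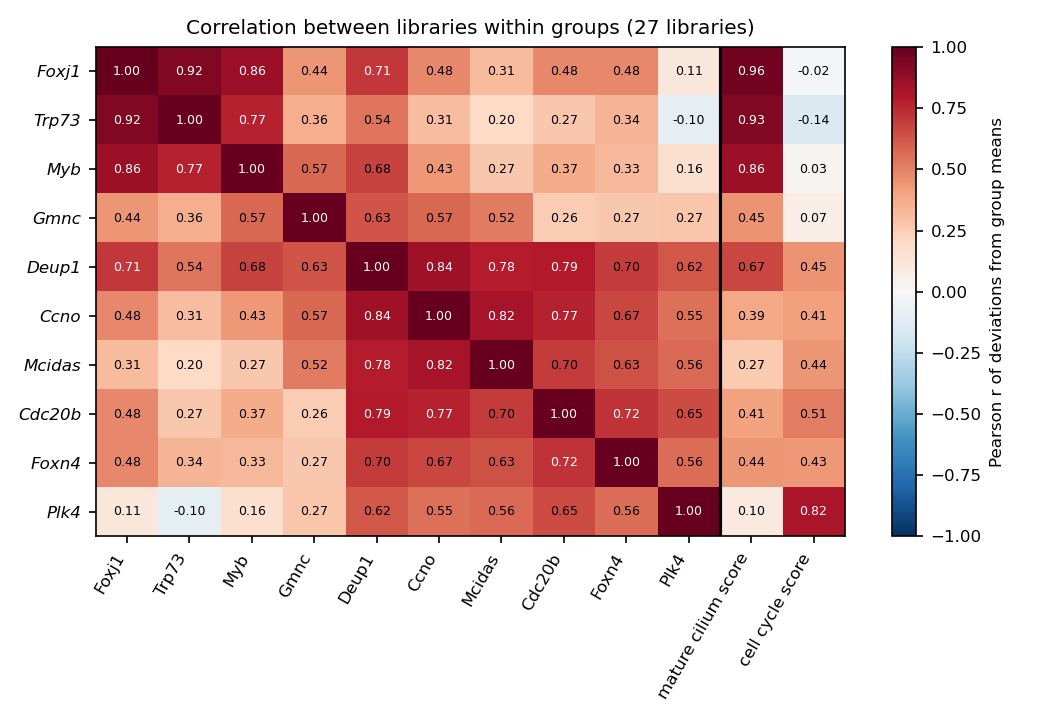
Pearson r of deviations of log2 CPM from group means over 27 libraries, between the 10 members and, right of the black line, with the mature cilium and cell cycle scores. Foxj1, Trp73 and Myb share high values with the mature cilium score (0.96, 0.93 and 0.86), Plk4 with the cell cycle score (0.82), and Mcidas, Ccno and Deup1 with each other (0.78 to 0.84). Cdc20b has 0.70 to 0.79 with Mcidas, Ccno and Deup1.

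Markers of other cell types moved beside the program. Over all genes 5.37% were called in HDM_SAL, 7.88% in HDM_CP and 16.1% on average. Of 10 goblet cell markers 7 were higher in HDM_SAL, 7 in HDM_CP and 9 on average. Their summed level ran from 96.0 to 3558 CPM in HDM_SAL lungs, against 15.1 to 60.8 CPM in PBS_SAL lungs, and from 145 to 1977 CPM in HDM_CP lungs, against 22.6 to 42.4 CPM in PBS_CP lungs other than 57. On average the 4 of smallest p were the mucins Muc5b (3.55 ± 0.45, adjusted p = 1.11e-05) and Muc5ac (4.44 ± 0.59, adjusted p = 1.84e-05), with Fcgbp (3.73) and Agr2 (3.59). The 10 club cell markers summed to 19190 to 38850 CPM in HDM_SAL lungs, against 19540 to 28130 CPM in PBS_SAL lungs, with Chad the 1 called (1.41 ± 0.27, adjusted p = 0.0031), and in HDM_CP lungs Scgb3a1 was higher (3.41 ± 0.90, adjusted p = 0.0189) and Cyp2f2 lower (-0.64 ± 0.19, adjusted p = 0.0353). Of 8 basal cell markers 6 were tested and Aqp3 was called (1.92 ± 0.30, adjusted p = 0.000393), while the defining basal gene Krt5 was at 0 in 20 of the 27 libraries. None of 12 lymphocyte markers and none of the 8 progenitor and megakaryocyte markers tested, cells in which Myb is also known to act, was called in HDM_SAL or HDM_CP lungs, and Tal1 was lower on average (-0.17 ± 0.04, adjusted p = 0.00757). The leukocyte marker Ptprc was not called in any of these comparisons. Of the alveolar and endothelial markers, Sftpa1 was higher (0.56 ± 0.06 on average) and Hopx, Rtkn2 and Erg were lower (-0.24, -0.34 and -0.27 on average), with Lamp3 higher and Sftpb lower by less. The part of these cells in the program values was not tested.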

How the data were processed

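The authors deposited, for 56941 annotated genes and 27 libraries, tables of estimated counts and of TPM. Per the submitters' processing notes STAR, StringTie 2 and GRCm39 were used, and GENCODE M33 appears in the tables' name. Deposited as whole numbers, the estimated counts sum to about 4 times the planned 20 M pairs (M, mega) of reads of 150 bases, and the tests take their error from the differences between mice. The deposited TPM values sum to between 999899 and 999999 in each library and carry no depth. No source used here says whether counting used strand. Genes without a symbol (310, holding 0.0602% of the counts) were left out.

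In R 4.3.3, edgeR 4.0.16 fitted the 4 group means to all 27 libraries: TMM factors, filterByExpr with a minimum count of 10 (24581 genes), robust quasi-likelihood fit, Benjamini-Hochberg over all genes, threshold 0.05. The fit was tested on simulated data first. CPM use TMM factors, and log2 CPM a prior count of 2. Alternatives used limma 3.58.1, DESeq2 1.42.0 and log2(TPM + 1) or log2(TPM + 0.1). Named beside the 10 members are Tppp3, Gmnn, the neighbours of Mcidas, the called genes of each list (at most 5, otherwise the 4 of smallest p) and the 5 genes most like Mcidas and Deup1, of which 1 is not reported here. Hey1, HDM_SAL 54 and PBS_CP 57 were named after their values were seen. The members and the 17 gene lists were chosen with earlier results of these data known. Identical libraries were looked for and not found. Same-run libraries of different groups did not deviate together (mean r = 0.012, against -0.006 between runs).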

Additional observations from a re-analysis of the deposited data

Results flagged for a closer look

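Single libraries stood out from their group for 4 members, of 52 combinations of gene and group checked with Dixon's test, of which chance picks about 1 in 20. PBS_CP 57 was above the other 6 PBS_CP libraries for Foxn4 (3.75 CPM, against 0.361 to 0.835 CPM), Ccno (8.25 CPM, against 1.84 to 3.45 CPM), Deup1 (9.37 CPM, against 2.74 to 3.53 CPM) and Cdc20b (3.46 CPM, against 0.332 to 0.797 CPM). HDM_SAL 54 was above the other 5 HDM_SAL libraries for Cdc20b (6.82 CPM, against 1.84 to 2.95 CPM).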

How the results depend on the processing

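The 6 program genes called on average over CP and SAL mice (6 in every fit that left out 1 library) were lost under a single alternative, the cell cycle score as a covariate, which called 0 of them. That fit also gave 0 program genes in HDM_SAL against PBS_SAL and in HDM_CP against PBS_CP, and 0 mature cilium genes in each of these 3 comparisons, and it reversed Plk4, to -0.099 on average and -0.091 in HDM_CP against PBS_CP. In HDM_SAL against PBS_SAL the 4 program genes became 6 with DESeq2 (Foxn4 and Plk4 gained), 5 (Foxn4 gained) with limma voom, at a minimum count of 50, with values divided by 4, with each filtered TPM scale, with only the groups compared and without PBS_CP 57 and HDM_SAL 54, 3 (Ccno lost) with log2(TPM + 0.1) and no filter, 1 with the mature cilium score as a covariate and 3 to 6 with 1 library left out (3 without HDM_SAL 54, 6 without HDM_SAL 100). In HDM_CP against PBS_CP the 1 program gene became 3 with DESeq2, 5 with limma voom, 2 at a minimum count of 50, 2 with values divided by 4, 2 with log2(TPM + 1), 3 with log2(TPM + 0.1), 2 with that and no filter, 0 with only the groups compared, 2 with the run of library numbers as a block, 4 with the mature cilium score, 6 without PBS_CP 57 and HDM_SAL 54 (chosen after the data were seen) and 0 to 6 with 1 library left out (6 without PBS_CP 57). The 1 mature cilium gene in HDM_SAL against PBS_SAL became 9 with DESeq2, 3 with voom, 2 at a minimum count of 50, 0 with no filter, with each TPM scale, with only the groups compared, with the run block and without PBS_CP 57 and HDM_SAL 54, and 0 to 9 with 1 library left out (9 without HDM_SAL 100). On average the 2 mature cilium genes became 4 with DESeq2, 1 with log2(TPM + 0.1) and no filter and 1 to 7 with 1 library left out (1 without HDM_SAL 54, 7 without HDM_SAL 100). In HDM_CP against PBS_CP Tppp3 stayed the 1 gene called in each fit with 1 library left out (1 to 1). The counts for combustion products and for the interaction stayed 0 in every setting and with each library left out (0 to 0). The share of all genes called changed between fits too, so a changed count need not be particular to these lists. In HDM_CP against PBS_CP it was 7.88% in the main fit, 9.83% with the mature cilium score and 6.96% without PBS_CP 57. In HDM_SAL against PBS_SAL it was 5.37% in the main fit, 2.12% with the mature cilium score and 2.8% without HDM_SAL 54. The cause of these changes was not tested.

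Over all genes, the calls in HDM_SAL against PBS_SAL (767 higher and 554 lower) became 513 and 846 with log2(TPM + 1), and the total of 1321 became 590 without HDM_SAL 99, 697 without HDM_SAL 54, 679 without PBS_CP 57 and HDM_SAL 54, 847 with log2(TPM + 0.1) and no filter and 2020 with DESeq2. DESeq2 called 32 genes, against 2, for PBS_CP against PBS_SAL and 199, against 1, for HDM_CP against HDM_SAL. No paired analysis was possible because the groups share no replicate numbers in the labels. Mcidas, Foxn4 and Cdc20b lie near 1 CPM in PBS lungs, where the estimated counts make counting error look smaller than it is.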
